A study of Sus scrofa with 11 samples.

Results

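Skeletal muscle contracts when myosin thick filaments pull on actin thin filaments, and fast and slow fibres build these filaments partly from different genes. The genes described here are 8 genes of that machinery, chosen by symbol: the fast myosin light chain genes MYL1 and MYL11, the fast myosin-binding protein C gene MYBPC2, the light chain kinase gene MYLK2, the skeletal actin gene ACTA1, the tropomyosin gene TPM1, the fast troponin C gene TNNC2 and the Z-disc gene MYOZ1. Each symbol was carried by 1 pig Ensembl gene ID, so that 8 of the 25322 genes in the table were members, and 8 of 8 passed the filter on low counts that left 11329 genes to test. RNA came from the longissimus lumborum, a back muscle, of 11 female pigs aged 23 weeks, grouped by fibre histology of the same muscle. The 7 fibre1 pigs had more than 17% of type I fibres, which are slow and oxidative, with under 70% of type IIB fibres, which are fast and glycolytic. For the 4 fibre2B pigs the bounds were below 8% for type I and above 70% for type IIB. Breed is not given in the sources used here, and the fibre counts of single pigs are given only as these bounds.

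In each myosin head the heavy chain carries 1 essential and 1 regulatory light chain, which in fast fibres come from MYL1 and MYL11. Calcium starts contraction by binding troponin C, which moves tropomyosin along the actin filament. MYLK2, once activated by calcium and calmodulin, phosphorylates the regulatory light chain, and MYBPC2 binds the thick filament and tunes its movement. ACTA1 serves fast and slow fibres alike, so not every member is specific to fast fibres. TPM1 is also used, in other splice forms, by smooth muscle and other cells.

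Of the 8 genes, 0 passed edgeR's quasi-likelihood test at a threshold of 0.05 after Benjamini-Hochberg adjustment over all genes. Of all genes tested 9.01% passed, 4.38% higher in fibre1 and 4.63% higher in fibre2B. At an unadjusted p under 0.05 stood 1 of the 8 (MYBPC2), against 28.9% of all genes. DESeq2 called 1 of the 8, MYBPC2, and 15.4% of all genes. The direction was towards higher levels in fibre1, the group with fewer type IIB fibres, in 7 of 8 genes (5 of 8 with scaling by library size only), against 50.7% of all genes tested. The median log2 fold change, fibre1 minus fibre2B, was 0.39 for the 8 genes and 0.0073 for all genes. Without fibre1 pigs 5 and 6 the median of the 8 was 0.10, with 6 of 8 positive, and with library size only it was 0.12. The ranges of the groups overlapped in each of the 8 genes, while 7.55% of all genes had no overlap, 3.40% with fibre1 on top and 4.15% with fibre2B on top. Each pig is a sample of its own in the labels, and the p-values set the difference between groups against the spread between these animals.

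The members were among the most abundant messages of the muscle. ACTA1 had the highest mean CPM (read counts put on a common library size, with TMM scaling) of all genes, MYL11 the second, TNNC2 the third, TPM1 ranked 6, MYL1 10, MYBPC2 21, MYOZ1 22 and MYLK2 255. These values are not divided by transcript length, so the ranks do not order the genes by number of molecules. The smallest count behind any value below was 3559 (MYLK2) and the largest 3040220 (ACTA1). Counting error is therefore small beside the spread between pigs.

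The smallest library had 14832736 counts (fibre2B pig 14) and the largest 36374829 (fibre1 pig 12), and no pair of pigs agreed within sampling noise (lowest chi-square per degree of freedom 27.8). Fibre1 pigs 5 and 6 stood apart in composition. The 10 most abundant nuclear genes, 5 of them members, took 45.2% and 44.2% of counts in them against 29.5% to 36.8% in the other pigs, mitochondrially encoded genes took 5.24% and 4.38% against 7.54% to 14.7%, and their TMM factors were 0.718 and 0.779 against 0.959 to 1.19. The fold changes, ratios, total share, spreads and counts of calls below were therefore also computed without both. These pigs were picked partly by the level of members. Leaving them out thus lowers the fibre1 level of members that are highest in them by construction. Such falls show how far a value rests on these pigs and are no independent check. Muscle identity was checked on NEB, the giant thin filament protein gene, which had 2247 to 4821 CPM without TMM scaling over the 11 pigs.

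For the 2 light chain genes of the thick filament the group means differed by less than the SD within either group. MYL1, the essential light chain gene, had in fibre1 a lowest value of 15401 CPM (pig 1), a median of 23637 and a highest of 30031 (pig 5). In fibre2B pigs 10, 11, 14 and 16 it had 24765, 22120, 23751 and 25435 CPM. The fibre2B pigs lay in a narrow band inside the wide fibre1 range, with 3 fibre1 pigs below them and 2, pigs 5 and 6, above. That position of pigs 5 and 6 depends on the TMM scaling. As shares of all counts they had 2.16% and 2.04%, below the 2.44% to 2.82% of the fibre2B pigs. The means were 22731 ± 5032 (SD, n = 7) and 24018 ± 1442 CPM (n = 4). On the log2 scale the difference was -0.079 ± 0.21 (SE; edgeR adjusted p = 0.826), with a 95% interval of -0.52 to 0.37.

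MYL11, the regulatory light chain gene, ran from 30679 (pig 1) through a median of 45938 to 67519 CPM (pig 5) in fibre1. In fibre2B it had 45849, 38582, 49972 and 37806 CPM in pigs 10, 11, 14 and 16. Here too the fibre2B pigs sat within the fibre1 range. The log2 fold change was 0.10 ± 0.24 (edgeR adjusted p = 0.810; 95% interval -0.41 to 0.61), and it changed sign without fibre1 pig 5 (-0.021), without pigs 5 and 6 (-0.068) and with scaling by library size only (-0.15).

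MYBPC2 had the largest difference of the 8. Its fibre1 values ran from 3675 CPM (pig 12) through a median of 7130 to 13184 CPM (pig 6), and pig 5 had 13140 CPM. In fibre2B pigs 10, 11, 14 and 16 it had 4483, 5588, 3558 and 4521 CPM. Of the fibre1 pigs 5 lay above all fibre2B pigs, and pigs 5 and 6 were far above the rest. The means were 8013 ± 3732 (SD, n = 7) and 4537 ± 830 CPM (n = 4). This is a log2 fold change of 0.82 ± 0.33, or 1.77-fold (edgeR adjusted p = 0.119), with a 95% interval of 0.11 to 1.53 that is not adjusted for the number of genes. The difference was 0.39 without pigs 5 and 6 (adjusted p = 0.321). It passed without fibre1 pig 12 (0.94, adjusted p = 0.049) and with DESeq2 (0.84, adjusted p = 0.048), and over leaving out single pigs the adjusted p ran from 0.049 to 0.279.

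MYLK2, the kinase of the regulatory light chain, was the least abundant member. It ran from 272 (pig 2) through 397 to 504 CPM (pig 6) in fibre1 and had 309, 323, 202 and 370 CPM in fibre2B pigs 10, 11, 14 and 16. Of the fibre1 pigs 5 lay above all fibre2B pigs, and fibre2B pig 14 was the lowest of all 11. The log2 fold change was 0.39 ± 0.21 (edgeR adjusted p = 0.226; 95% interval -0.053 to 0.83), 0.25 without fibre2B pig 14 and 0.51 without pig 16.

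**Figure D1:**
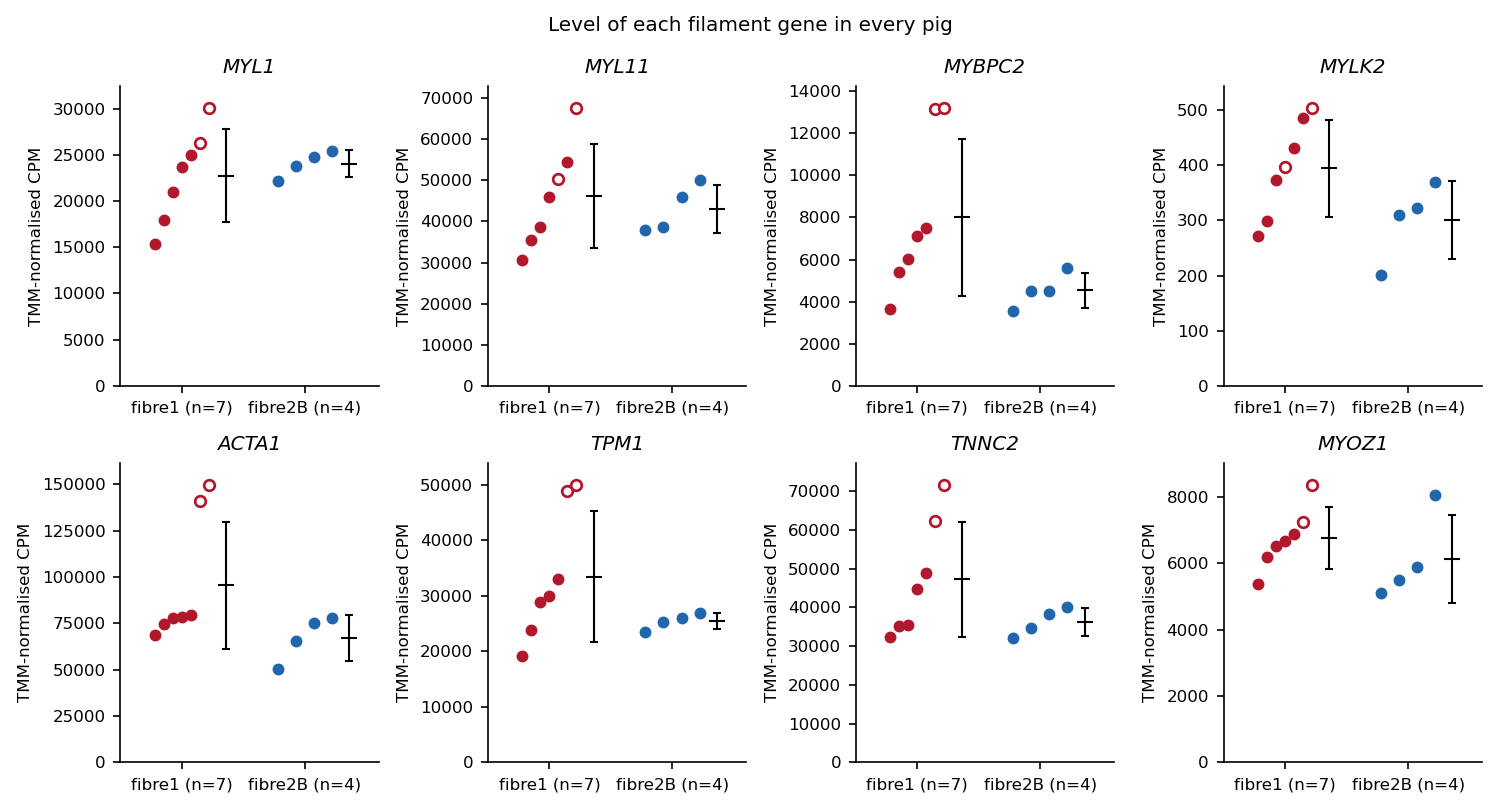
TMM-normalised CPM (vertical axis, linear from 0) of each of the 8 genes, 1 point per pig in order of level, in fibre1 (red, n = 7, open points for pigs 5 and 6) and fibre2B (blue, n = 4), with the mean and SD beside each group. The groups overlap in all 8 panels, and in MYL1, ACTA1, TPM1, TNNC2 and MYBPC2 the open points lie above every other pig. For MYL1 this does not hold in shares of all counts.

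All 3 thin filament genes were highest in fibre1 pigs 5 and 6. ACTA1, the actin of the skeletal thin filament, had 149690 and 140660 CPM in fibre1 pigs 5 and 6. The other 5 fibre1 pigs had 68714 to 79310 CPM, and fibre2B pigs 10, 11, 14 and 16 had 77615, 75372, 50261 and 65539 CPM. Apart from those 2 pigs the groups still overlapped, with fibre2B pigs 14 and 16 below every fibre1 pig. The log2 fold change was 0.51 ± 0.28 (edgeR adjusted p = 0.255; 95% interval -0.10 to 1.12) and 0.17 without pigs 5 and 6. Its cardiac relative ACTC1, whose protein is nearly identical, had 16.6 to 278 CPM in fibre1 and 18.8 to 31.5 in fibre2B. How reads shared between actins were assigned is not given in the sources used here.

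TPM1, whose tropomyosin lies along actin, had 50052 and 48870 CPM in fibre1 pigs 5 and 6 and 19246 (pig 1) to 33008 (pig 2) in the other fibre1 pigs. In fibre2B it had 26934, 25956, 23482 and 25379 CPM in pigs 10, 11, 14 and 16. Fibre1 pig 1 was the lowest of all 11 pigs, and 5 fibre1 pigs were above every fibre2B pig. The log2 fold change of 0.39 ± 0.27 (edgeR adjusted p = 0.346; 95% interval -0.18 to 0.97) became 0.090 without pigs 5 and 6.

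TNNC2, the fast calcium sensor, had 71696 and 62269 CPM in fibre1 pigs 5 and 6 and 32387 (pig 1) to 48980 (pig 2) in the other fibre1 pigs. Fibre2B pigs 10, 11, 14 and 16 had 34645, 38289, 40193 and 32190 CPM. All 4 fibre2B pigs were below the fibre1 median of 44820 CPM. The log2 fold change was 0.38 ± 0.25 (edgeR adjusted p = 0.338; 95% interval -0.17 to 0.92) and 0.12 without pigs 5 and 6.

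MYOZ1, whose protein binds alpha-actinin and calcineurin at the Z-disc, varied least among the 8 over all pigs, with an SD of log2 CPM of 0.23. It ran from 5358 (pig 1) through 6670 to 8361 CPM (pig 5) in fibre1 and had 8065, 5479, 5095 and 5884 CPM in fibre2B pigs 10, 11, 14 and 16. Both groups covered nearly the same range. The log2 fold change was 0.14 ± 0.18 (edgeR adjusted p = 0.646; 95% interval -0.26 to 0.53), 0.30 without fibre2B pig 10, 0.069 without pig 14, and -0.063 with scaling by library size only.

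**Figure D2:**
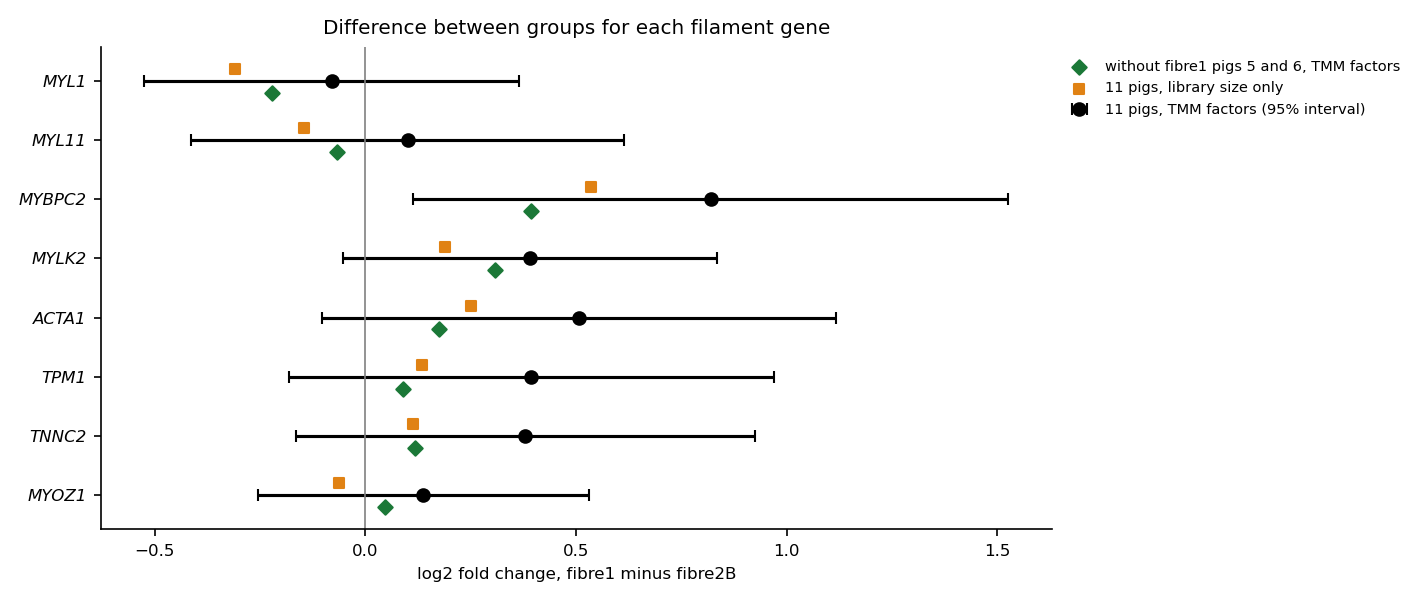
Log2 fold change, fibre1 minus fibre2B, of each gene with all 11 pigs and TMM factors (black points, bars are 95% intervals not adjusted for the number of genes), without fibre1 pigs 5 and 6 (green diamonds) and with all pigs scaled by library size only (orange squares). The black bars include 0 for 7 genes and not for MYBPC2, and both alternatives lie below the black point for all 8 genes.

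The pigs of fibre1 differed more among themselves than those of fibre2B in 6 of the 8 genes. For MYL1 the SD of log2 CPM was 0.33 within fibre1 and 0.088 within fibre2B, and for TPM1 0.51 and 0.084. For MYLK2 (0.34 and 0.38) and MYOZ1 (0.20 and 0.29) the order was the other way round. Without pigs 5 and 6 fibre1 had the larger SD in 5 of 8 genes, and for ACTA1 the SD within fibre1 fell from 0.47 to 0.084, below the 0.29 of fibre2B. The difference in spread was not tested.

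Among the 8 genes the choice of scaling changed the sign of MYL11 and MYOZ1, in both cases with library size only. Scaling by library size only moved the median log2 fold change of all genes from 0.0073 to -0.19, while the other scalings moved it by less than 0.1. With library size only MYL1, negative with TMM factors as well, had -0.31 (edgeR adjusted p = 0.216), MYL11 -0.15 and MYOZ1 -0.063. The other 5 genes were positive, from 0.11 (TNNC2) to 0.54 (MYBPC2). TMM factors computed without the 8 genes gave log2 fold changes from -0.075 (MYL1) to 0.83 (MYBPC2), close to those with all genes.

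As a share of all counts, the 8 genes together held between 19.2% (fibre1 pig 1) and 28.1% (fibre1 pig 5). The share was 19.2%, 23.8%, 28.1%, 27.2%, 23.0%, 23.3% and 23.1% in fibre1 pigs 1, 2, 5, 6, 7, 12 and 17. It was 21.9%, 24.1%, 23.3% and 21.4% in fibre2B pigs 10, 11, 14 and 16. The 4 fibre2B pigs lay inside the fibre1 range, with pigs 5 and 6 on top and pig 1 at the bottom. The means were 23.9 ± 2.96% (SD, n = 7) and 22.7 ± 1.24% (n = 4), a difference of 1.24 percentage points that became -0.24 without pigs 5 and 6. With mitochondrially encoded genes left out of the total the fibre2B pigs were almost alike, at 25.4 ± 0.45%, against 26.2 ± 2.56% in fibre1.

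Within that total the single genes went different ways. MYL1 took 2.13 ± 0.32% of counts in fibre1 and 2.64 ± 0.19% in fibre2B, and 6 of 7 fibre1 pigs were below every fibre2B pig, the exception being pig 12 with 2.67%. ACTA1 took 8.73 ± 1.5% against 7.33 ± 1.09%, and MYBPC2 0.72 ± 0.22% against 0.50 ± 0.097%. Of the counts on the 8 genes alone, MYL1 made up 7.52% (pig 6) to 11.5% (pig 12) in fibre1 and 10.4% (pig 11) to 12.9% (pig 16) in fibre2B. These shares add to a fixed total, so a rise in one gene lowers the others.

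**Figure D3:**
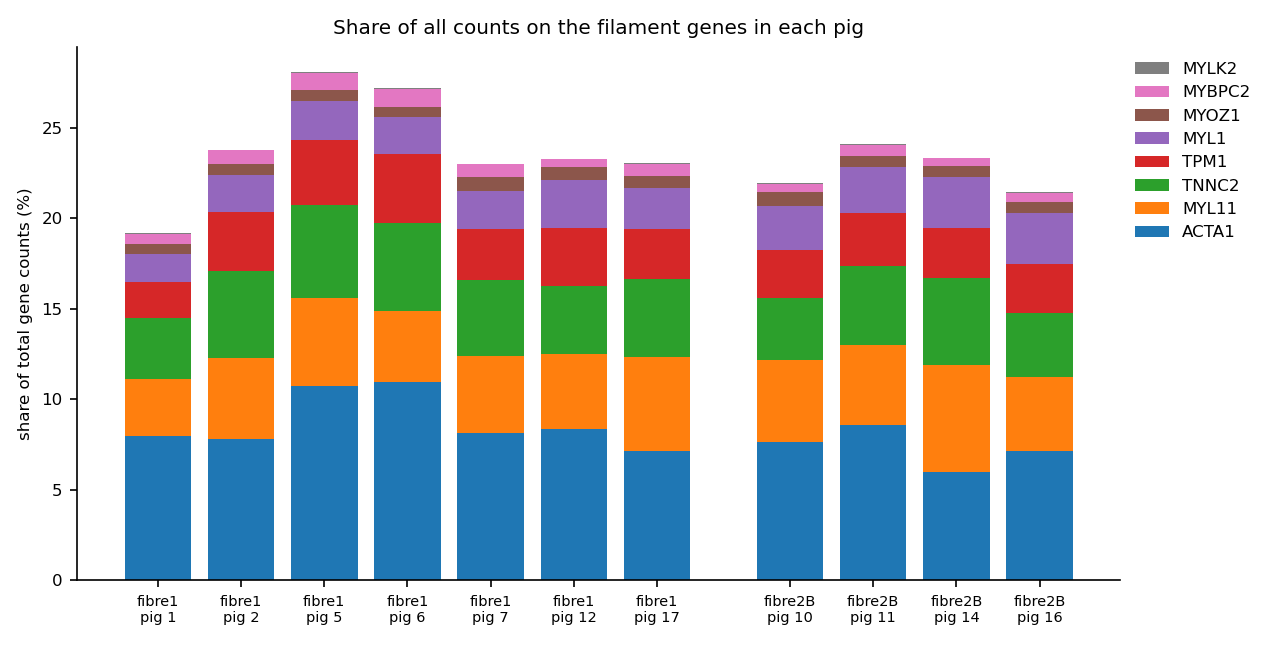
Share of total gene counts (percent, vertical axis from 0) on each of the 8 genes, stacked, 1 bar per pig. The bars reach 28.1% and 27.2% in fibre1 pigs 5 and 6 and 19.2% in fibre1 pig 1, and the 4 fibre2B bars lie between 21.4% and 24.1%.

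Ratios between partners do not depend on library size or gene length when the same ratio is compared between pigs. Of 6 such ratios 0 passed after adjustment over the 6 (exact permutation test, two-sided, 330 splits). The smallest p that this design allows is 0.0030. MYL1 to MYL11, the essential to the regulatory light chain, was 0.435 to 0.646 in fibre1 (median 0.502). It was 0.540, 0.573, 0.475 and 0.673 in fibre2B pigs 10, 11, 14 and 16. The log2 difference was -0.17, with 3 of 7 fibre1 pigs below every fibre2B pig (exact permutation p = 0.2, adjusted p = 0.4).

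MYBPC2 to MYL11 had the largest difference of the 6. Fibre1 pigs had 0.0950 to 0.262 (median 0.169) and fibre2B pigs 10, 11, 14 and 16 had 0.0978, 0.145, 0.0712 and 0.120. Of the fibre1 pigs 5 were above all fibre2B pigs. The mean log2 difference was 0.64 or 1.56-fold (exact permutation p = 0.0545, adjusted p = 0.327), and it was 0.45 without pigs 5 and 6. MYLK2 to MYL11, the kinase to its substrate, differed by 0.33 (exact permutation p = 0.3, adjusted p = 0.45) and by 0.072 without fibre2B pig 14.

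Neither ratio of the other thin filament genes to actin passed. The log2 difference was -0.13 for TNNC2 to ACTA1 (exact permutation p = 0.488, adjusted p = 0.488) and -0.14 for TPM1 to ACTA1 (p = 0.385, adjusted p = 0.462, same permutation test). Fibre2B pig 14, with a TNNC2 to ACTA1 ratio of 0.800 against 0.417 to 0.618 in all other pigs, stood above the rest. Without that pig the first difference was 0.051 and the second -0.044. MYOZ1 to ACTA1 was lowest in fibre1 pigs 6 (0.0516) and 5 (0.0559) and highest in fibre2B pig 10 (0.104). Its log2 difference was -0.31 (exact permutation p = 0.142, adjusted p = 0.4) and -0.13 without pigs 5 and 6.

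Over all 28 pairs of members, the SD of the log2 ratio over the 11 pigs measures how tightly 2 genes held their proportion. TNNC2 and TPM1 had the smallest value, 0.17, although each alone varied with an SD of 0.39 and 0.43. MYL1 and MYL11 followed with 0.21, then MYL11 and TNNC2 with 0.22. The other pairs of thin filament genes had 0.23 (TPM1 and ACTA1) and 0.28 (TNNC2 and ACTA1). The widest pair was MYL1 and MYBPC2 with 0.63, whose ratio was also lower in fibre1 by 0.82 on the log2 scale. In 10 of 28 pairs the ratio varied less than either gene by itself. The values of single genes carry the TMM scaling, which cancels in a ratio, so this is partly built in. How many pairs of other genes do the same is not given here. Without pigs 5 and 6 the smallest values were 0.18 for MYL11 and TNNC2 and 0.18 for TNNC2 and TPM1, and the widest pair, 0.54, was again MYL1 and MYBPC2.

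Fast genes were next set against their slow-fibre relatives, a set of 3 ratios chosen after the data were seen. MYL1 to MYL3, the fast to the slow essential light chain, was 5.68 in fibre1 pig 1 and 20.1 to 34.0 in the other fibre1 pigs. It was 25.4, 40.3, 106 and 27.8 in fibre2B pigs 10, 11, 14 and 16. Of the fibre1 pigs 4 were below every fibre2B pig. The mean log2 difference was -1.0, which is 2.01-fold higher in fibre2B (exact permutation p = 0.0939, adjusted over the 3 p = 0.282), and -0.56 without fibre2B pig 14.

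TNNC2 to TNNC1, the fast to the slow troponin C, had 3.98 in fibre1 pig 1, 11.8 to 36.4 in the other fibre1 pigs and 10.1 to 42.5 in fibre2B. Its log2 difference was -0.43 (exact permutation p = 0.542, adjusted p = 0.664), -0.10 without fibre1 pig 1 and -0.10 without fibre2B pig 14. MYBPC2 to MYBPC1 had 2.66 in fibre1 pig 1 and 3.42 to 10.9 in fibre2B, with a log2 difference of -0.19 (exact permutation p = 0.664, adjusted p = 0.664). Fibre1 pig 1 was thus lowest in all 3 ratios, and fibre2B pigs 14 and 11 were among the highest. Over the slow genes TNNT1, TNNI1, TNNC1 and MYL3 the mean log2 CPM was 12.5 in fibre1 pig 1, 10.7 to 11.1 in the other fibre1 pigs and 11.0, 9.83, 8.96 and 10.6 in fibre2B pigs 10, 11, 14 and 16. In whole tissue, fewer fibres of a type and less message per fibre cannot be told apart.

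**Figure D4:**
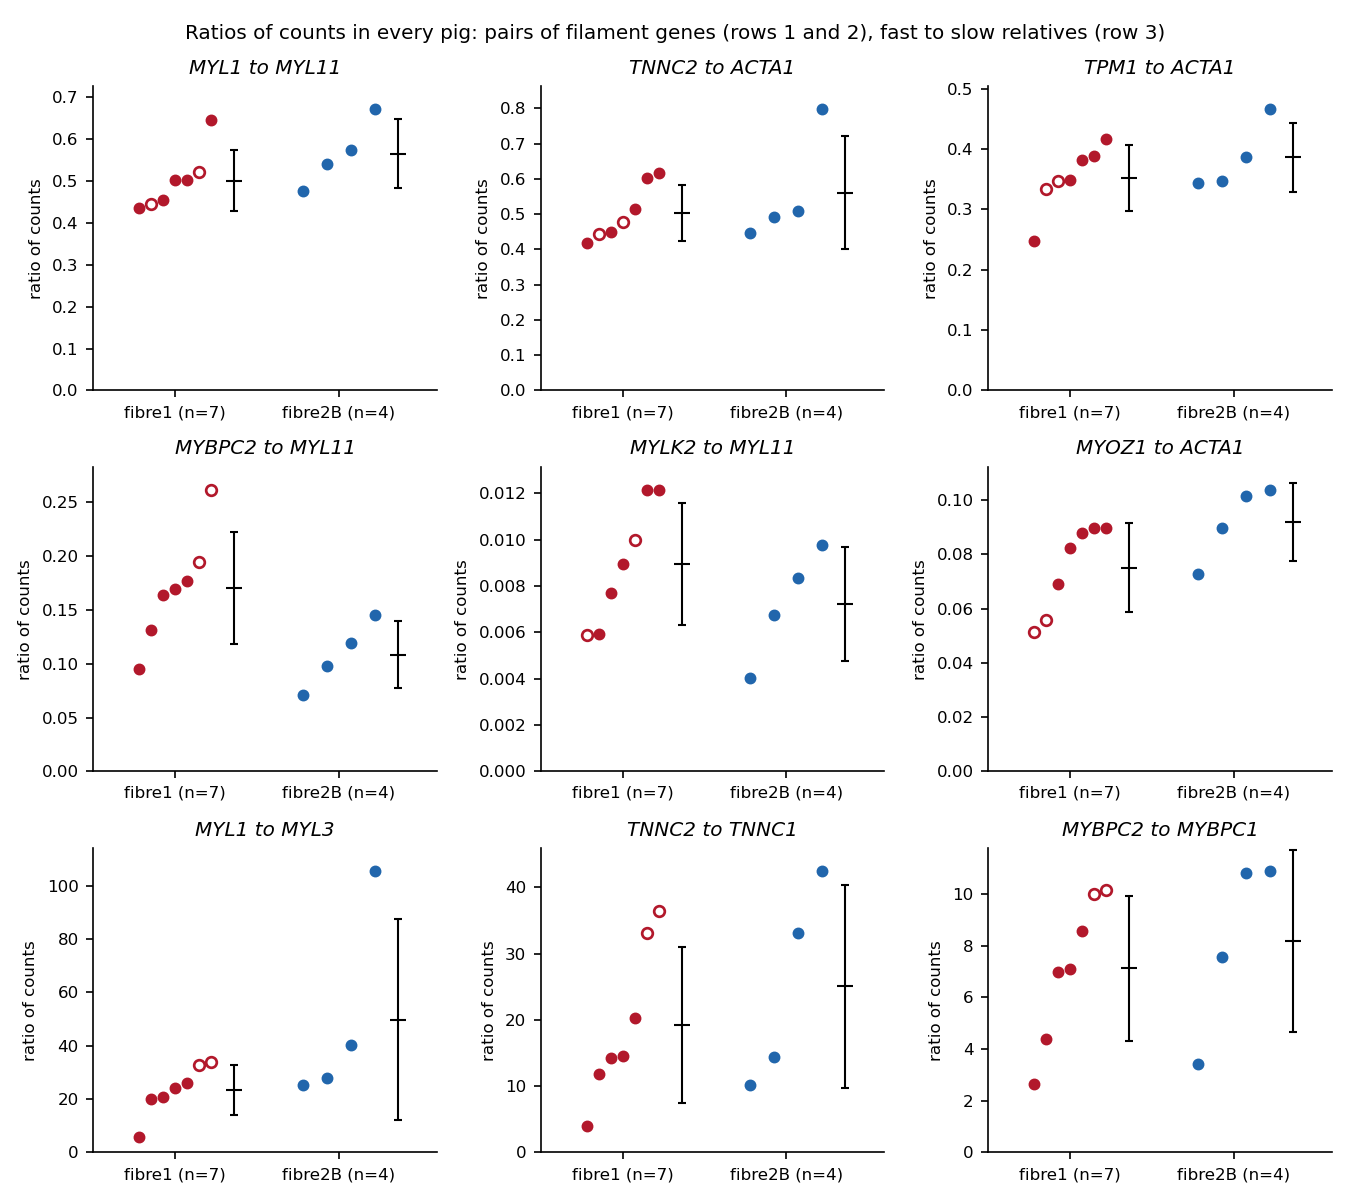
Ratio of counts (vertical axis, linear from 0) of 6 pairs of filament genes (rows 1 and 2) and of 3 fast genes to their slow relatives (row 3), 1 point per pig, in fibre1 (red, n = 7, open points for pigs 5 and 6) and fibre2B (blue, n = 4), with mean and SD. The groups overlap in all 9 panels, and fibre1 pig 1 is the lowest red point of row 3 in each panel (5.68, 3.98 and 2.66).

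The genes that work with these members were described from lists of partners. In the list for light chain phosphorylation, 6 genes for calmodulins, myosin phosphatase subunits and the like were tested, of which CALM3 was higher in fibre1, CALM2 higher in fibre2B and 4 did not pass. Their median log2 fold change was 0.18 (-0.020 with library size only). CALM2 and CALM3 encode the same calmodulin protein, which activates MYLK2. CALM2 had 140 to 240 CPM in fibre1 and 283 to 476 in fibre2B, so that the groups did not overlap, and its log2 fold change was -0.78 ± 0.17 (edgeR adjusted p = 0.022). CALM3 had 439 to 1103 CPM in fibre1 and 337 to 463 in fibre2B, with a log2 fold change of 0.78 ± 0.22 (edgeR adjusted p = 0.042). PPP1R12C, a myosin phosphatase regulatory subunit gene, had 0.44 ± 0.14 (edgeR adjusted p = 0.068) and passed with DESeq2 (adjusted p = 0.036), with quality weights and without fibre1 pig 12. The CALM2 call was lost without fibre2B pig 14 (adjusted p = 0.088), without pig 16 (0.058) and without fibre1 pigs 5 and 6 (0.072), and its log2 fold change then lay between -0.62 and -0.77. CALM3 lost its call in 11 of 25 alternatives, with adjusted p from 0.053 to 0.108, among them scaling by library size only, no filter, and leaving out fibre1 pig 1, 2, 5 or 6 or any fibre2B pig.

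Of 9 other thick filament genes tested from 19 listed, 9 had positive values with a median of 0.83. That median was 0.69 with library size only and 0.71 without fibre1 pigs 5 and 6. Of the 9 genes 1 was called. It is the ID listed as MYH6, a cardiac myosin heavy chain gene near-identical to the slow gene MYH7, which was not analysed here, so its counts are uncertain. It had 2129 to 16410 CPM in fibre1 and 370 to 1606 in fibre2B (log2 fold change 2.29 ± 0.59, edgeR adjusted p = 0.034), and 9 of 25 alternatives ended the call (adjusted p from 0.051 to 0.100), among them any fibre2B pig left out and fibre1 pig 2, 5 or 6 left out. Without fibre1 pig 1 the log2 fold change of MYH6 was 1.73, and it stayed called (edgeR adjusted p = 0.040). MYOM1, which crosslinks thick filaments at the M-band, had 0.95 ± 0.32 (edgeR adjusted p = 0.071; 0.018 with DESeq2). MYOM1 also passed with quality weights and when fibre1 pig 7 or pig 12 was left out. MYH8, the perinatal heavy chain gene, had 1.48 ± 0.52 (edgeR adjusted p = 0.085) and 36301 ± 26592 against 13003 ± 3824 CPM. Its log2 fold change was 0.71 without fibre1 pigs 5 and 6, and it passed with quality weights (adjusted p = 0.039) and without fibre1 pig 12 (adjusted p = 0.032). It is one of a cluster of near-identical heavy chain genes, so its counts are uncertain as well. The adult fast heavy chain genes MYH1, MYH2 and MYH4, whose proteins carry the light chains of MYL1 and MYL11, were not analysed here.

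Of 12 other thin filament genes tested from 17 listed, 11 had positive values (8 with library size only) with a median of 0.34 (0.13 with library size only), and 0 passed (edgeR). Among these 12 genes the smallest p belonged to TPM4, a tropomyosin of non-muscle cells (-0.62 ± 0.24, edgeR adjusted p = 0.107), and to the slow troponin genes TNNT1 (1.06 ± 0.41, edgeR adjusted p = 0.107) and TNNI1 (1.15 ± 0.45, edgeR adjusted p = 0.112). TNNT1 passed with DESeq2, TPM4 with quality weights, and all 3 with 1 surrogate variable. Without fibre1 pig 1 TNNT1 had 0.69 and TNNI1 0.72. TPM2, the other abundant tropomyosin gene of the muscle, had 12283 ± 3655 CPM in fibre1 and 8131 ± 2932 in fibre2B (log2 fold change 0.60 ± 0.27, edgeR adjusted p = 0.168; 0.34 without fibre1 pigs 5 and 6). The fast troponin genes TNNT3 and TNNI2, whose proteins sit beside TNNC2, were not analysed here.

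At the Z-disc, where MYOZ1 sits, 14 genes were tested from 20 listed, 10 of them positive (9 with library size only) with a median of 0.34 (0.13 with library size only, 0.22 without fibre1 pigs 5 and 6), and 0 passed (edgeR). TCAP, the cap protein of titin, had 5498 ± 1617 against 3104 ± 767 CPM (0.82 ± 0.27, edgeR adjusted p = 0.067). SYNPO2L had 0.85 ± 0.26 (edgeR adjusted p = 0.057), and CAPZA1, a subunit of the protein that caps actin, had -0.50 ± 0.18 (edgeR adjusted p = 0.097). TCAP and SYNPO2L each passed with DESeq2 (adjusted p = 0.014), with quality weights and without fibre1 pig 7. CAPZA1 passed without fibre1 pig 12, and SYNPO2L also when fibre1 pig 12 or pig 17 was left out.

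Of 5 fast calcium handling genes tested 5 were positive, with a median of 0.36 (0.20 with library size only), and 0 passed (edgeR). The calcium pump gene ATP2A1 had 0.75 ± 0.34 (edgeR adjusted p = 0.165) and the calcium store gene CASQ1 0.45 ± 0.24 (edgeR adjusted p = 0.217). CACNA1S, the voltage sensor gene, had 0.34 ± 0.25 (edgeR adjusted p = 0.384). Without fibre1 pigs 5 and 6 the values were 0.33 for ATP2A1, 0.21 for CASQ1 and 0.019 for CACNA1S, and CACNA1S had 0.14 without pig 6 alone. Of 4 tested slow-fibre markers 4 were positive, with a median of 0.95, and 0 passed (edgeR). That median was 0.81 with library size only and 1.10 without fibre1 pigs 5 and 6. These 4 genes are also in the thick and thin filament lists. Fast and slow contractile genes thus both had positive medians, but that of the 8 members fell to 0.12 and 0.10 in the same 2 settings. The slow genes fell with other pigs left out. Without fibre1 pig 1 TNNT1, TNNI1, TNNC1 and MYL3 had 0.69, 0.72, 0.35 and 0.48. Without fibre2B pig 14 they had 0.82, 0.88, 0.54 and 0.55. The size of this contrast thus depends on which pigs are left out. Whether the lists differ was not tested.

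TPM1 is also made by smooth muscle, whose markers were therefore looked at. Of 8 tested markers of smooth muscle and pericytes 7 did not pass, among them CNN1 (0.55 ± 0.19, edgeR adjusted p = 0.082; 0.041 with DESeq2) and SMTN (0.27 ± 0.21, edgeR adjusted p = 0.399). The level of KCNJ8 was higher in fibre2B (-0.78 ± 0.21, edgeR adjusted p = 0.038). That call was lost in 10 of 25 alternatives (adjusted p from 0.051 to 0.148), among them limma-voom, library size only, and leaving out fibre1 pig 1, 2, 5 or 6 or fibre2B pig 10, 11 or 14. The summed level of the 8 markers was 186 to 260 CPM in fibre1 and 181 to 211 in fibre2B. The part of smooth muscle in the TPM1 counts was not tested.

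Of 4 fibroblast markers, the matrix genes DCN (-1.13 ± 0.23, edgeR adjusted p = 0.019) and LUM (-1.05 ± 0.25, edgeR adjusted p = 0.026) were higher in fibre2B. COL3A1 had -0.80 ± 0.33 (edgeR adjusted p = 0.129; 0.038 with 1 surrogate variable). The sum of the 4 was 472 to 976 CPM in fibre1 and 743 to 1437 in fibre2B. DCN lost its call in 2 and LUM in 5 of 25 alternatives, among them leaving out fibre2B pig 14 and leaving out fibre1 pigs 5 and 6. Of 4 blood and immune markers the haemoglobin gene HBB was higher in fibre2B (-1.27 ± 0.35, edgeR adjusted p = 0.041, lost in 7 of 25 alternatives, among them any fibre2B pig left out and fibre1 pig 1, 2 or 17 left out). ALAS2, a gene of haem synthesis in red cell precursors, had -1.14 ± 0.42 (edgeR adjusted p = 0.095; 0.024 with limma-voom and quality weights). The macrophage marker CD68 had -0.99 ± 0.44 (edgeR adjusted p = 0.157; -0.36 without fibre2B pig 14). The sum of the 4 blood and immune markers was 141 to 469 CPM in fibre1 and 431 to 969 in fibre2B.

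Of 3 endothelial markers 0 passed (edgeR; TIE1 with DESeq2, with 1 surrogate variable and without fibre1 pig 12). TIE1 had 0.78 ± 0.24 (edgeR adjusted p = 0.058), KDR 0.29 ± 0.34 and PECAM1 0.083 ± 0.24, and their sum was 57.8 to 121 CPM in fibre1 and 60.8 to 104 in fibre2B. The adipocyte markers CIDEC (0.35 ± 0.42) and PLIN1 (0.14 ± 0.61) summed to 1.70 to 6.43 against 1.47 to 5.42 CPM. The part of these cells in the values of the filament genes was not tested.

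Isoforms carry no gene name in the files. They were joined to genes where, in all 11 pigs, neighbouring isoforms added up to the count of the gene, allowing a shortfall of 1 count for each isoform. By this join 7 of the 8 genes had all their counts on 1 isoform, so the alternative forms that MYL1 and TPM1 are known to make were not separated. MYBPC2 had 2 isoforms, and the minor one held 0% to 0.265% of its counts (0.086 ± 0.086% in fibre1 and 0.14 ± 0.093% in fibre2B, two-sided exact permutation p = 0.33).

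The genes whose level moved most like that of the 8 members were found by the SD, over the 11 pigs, of the log2 ratio to the members' mean. Over the 510 named genes whose mean reached 100 CPM the median SD was 0.34. The smallest values belonged to SNF8 (0.109), an endosomal sorting gene, COPS3 (0.111), a subunit gene of the COP9 signalosome, PSMC3 (0.125), a proteasome gene, ENO3 (0.125), the muscle enolase of glycolysis, and MRPL28 (0.125), a mitochondrial ribosomal protein gene. The members themselves had 0.155 (TNNC2) to 0.374 (MYBPC2), although each of them is part of the mean. These 5 genes thus followed the members' mean more closely than any single member did. They were picked as the smallest of 510 values, while the members were not picked by their SD. This order therefore says nothing about the members as a set, and whether further genes lay below the members was not counted. Of the 5, 0 passed between groups (edgeR adjusted p from 0.221 to 0.473, log2 fold changes from 0.20 to 0.35, 0 at an unadjusted p under 0.05). Without fibre1 pigs 5 and 6 their log2 fold changes were 0.021 to 0.15, and all 5 again had smaller SDs than any member.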

How the data were processed

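The series' design text gives a HiScan SQ run of 50 cycles, single-end, with 5 technical repetitions. Each pig has 1 column. The labels' protocols name TruSeq libraries from 300 ng of total RNA. The authors deposited expected counts per gene and per isoform, already whole numbers and not normalized. The submitters' processing notes name CASAVA 1.8.2, FastQC, STAR, RSEM, edgeR, DESeq2 and Sscrofa10.2, without roles. Columns were joined to pigs by the number that ends each title, and 0 columns belonged to other samples.

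The test across genes was the quasi-likelihood F test of edgeR 4.0.16 in R 4.3.3, on group alone. Low counts were filtered by filterByExpr, scaling was by TMM, and p was adjusted over all 11329 genes tested at 0.05. The SE of a log2 fold change is its size over the root of its F value. Ratios and isoform shares used exact permutation of pigs. Symbols came from a gene name table, and the RefSeq table of Sscrofa11.1 lists MYL11 as MYLPF. The members and lists were chosen with earlier results of these data known. The text names all members, up to 3 genes per list with the smallest p, and the 5 genes most like the members. TPM2, ACTC1 and the 3 fast to slow ratios were chosen after their values were seen, and NEB is a muscle check. As alternatives the scaling was changed, the filter was dropped or set to 1 CPM in 4 pigs, and use was made of DESeq2 1.42.0, limma-voom (limma 3.58.1) alone or with quality weights, robust dispersion, 1 surrogate variable (sva 3.50.0) and left-out pigs. The edgeR fit was tested on simulated data.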

Additional observations from a re-analysis of the deposited data

Results flagged for a closer look

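Of 38 groups of values examined for a pig far from the rest, 1 stood out. Chance alone flags about 1 in every 20 such groups, so 1 of 38 is no more than chance gives. The ratio of MYL1 to MYL11 counts was 0.646 in pig 12 of fibre1, and the other pigs of that group had 0.435 to 0.521. The gap to the next pig was 0.592 of the whole range of the group, above the limit of 0.568 for 7 samples. That pig had the largest total, 36374829 counts, and the lowest MYBPC2 level of the fibre1 pigs. Fibre2B pig 16 had a higher ratio still (0.673).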

How the results depend on the processing

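No paired analysis was possible because the groups share no replicate number. The count of members passing was 0 in 23 of 25 alternatives and 1 (MYBPC2) with DESeq2 and without fibre1 pig 12 (0 to 1 over pigs left out). The count over all genes, 1021, was 157 with library size only (53 higher in fibre1, 104 in fibre2B), 1740 with DESeq2, 1748 with limma-voom and quality weights, 1628 with 1 surrogate variable, 28 without fibre1 pigs 5 and 6, and from 0 (fibre2B pig 14 left out; 2436 at an unadjusted p under 0.05) to 1548 (fibre1 pig 12 left out) over pigs left out. With library size only the sign changed for MYL11 (-0.15), MYOZ1 (-0.063), COPS3 (-0.041), PECAM1 (-0.052) and PLIN1 (-0.057). Without fibre1 pigs 5 and 6 it changed for MYL11 (-0.068) and PLIN1 (-0.066). With limma-voom PLIN1 had -0.16. With quality weights PLIN1 had -0.24 and PECAM1 -0.038. Over single pigs left out, signs changed for MYL11 (-0.021 to 0.19), PECAM1 (-0.027 to 0.22), PLIN1 (-0.12 to 0.58), the TNNC2 to ACTA1 ratio (-0.23 to 0.051) and the MYBPC2 to MYBPC1 ratio (-0.56 to 0.028). The ratios did not pass in any alternative run. The cause of these changes was not tested.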
